A study of Homo sapiens with 15 samples.

Results

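The comparison sets untreated MHCC-97H cells grown in a 3D model, sequenced in a second round as controls of a heat experiment, against the same cells grown in a 2D model. It uses 6 of the 15 RNA-seq libraries of the series, 3 per group, chosen by the sample titles and fitted with these 6 libraries only. MHCC-97H is an established human hepatocellular carcinoma line with high metastatic capacity, and both groups are this 1 line. The series as a whole holds 2D, 3D and animal models of the line from one round of sequencing, and 3D controls and heat-treated 3D cells from a later round. The labels name the control group only as the untreated arm of the 3D treatment. The series title names mechanical confinement, and the design text describes the heat experiment as an additional round of sequencing. The labels give neither the 3D material, nor the days of culture, nor how the controls were handled. The 2D libraries belong to the first round and the 3D controls to the second, so growth model and sequencing round are the same split of these 6 libraries and cannot be told apart. The replicates are called biological, without a statement that they were separate cultures, so p-values here measure only the spread between these libraries.

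Cells packed in 3 dimensions differ from cells on a plastic surface in neighbours, matrix and supply. Oxygen and nutrients reach a mass of cells by diffusion, and hypoxia-inducible factors, which are degraded when oxygen is plentiful, then switch on genes for glycolysis, vessel growth and pH control by binding short DNA elements. Attachment to stiff plastic also keeps cytoskeletal and growth programmes active, among them the YAP and SRF target genes, while heat shock factor and the proteasome serve the protein synthesis of fast growth.

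Depth was even. The 2D libraries held 17789899 to 17879280 counts over 14627 to 14692 detected genes, and the controls 16789095 to 16963026 counts over 14982 to 15140. Mitochondrial transcripts took 7.56 to 8.5% of counts in 2D and 7.99 to 9.59% in the controls. Replicates of a group differed beyond counting noise (chi-square per degree of freedom 2.52 to 3.14 in 2D and 2.82 to 7.92 in the controls, the highest between control replicates 1 and 3), so each library was counted as 1 sample. The keratins KRT8 and KRT18 and the liver regulator HNF4A were present in every library. Hepatocyte and liver cancer markers ALB and AFP were low (26 to 90 and 27 to 41 reads per library), and GPC3 had at most 3 reads. Of the markers of other cells, the macrophage and leukocyte list summed to 109 to 116 CPM (counts scaled to a common library size) in 2D and 237 to 257 in the controls. That sum came mostly from CD68, a lysosomal protein also made by epithelial cells (1827 to 1949 against 3835 to 4147 reads), while PTPRC, the pan-leukocyte marker, had 2 to 13 reads and CSF1R, TYROBP and AIF1 at most 2. ITGAM, an integrin of myeloid cells, was also called higher (51 to 75 against 113 to 126 reads), and CD74 had 24 to 37 reads throughout. CD163, on the same list, was called lower (12 to 17 against 1 to 9 reads). The fibroblast list summed to 68.4 to 72.8 CPM in 2D and 78.3 to 80.8 in the controls. That sum came mostly from LUM (907 to 1078 reads) and DCN (137 to 236), both called higher. The collagens COL1A1 (74 to 79 against 12 to 19 reads) and COL3A1 (12 to 16 against 4 to 7) were called lower. COL1A2, PDGFRA and PDGFRB had at most 5 reads and POSTN 0. The endothelial list summed to 49.8 to 62.6 and 58.4 to 66.3 CPM, mostly from ESAM (863 to 1083 reads), with KDR at 17 to 29 reads, CDH5 at most 1 and TIE1 and EMCN at 0. The part of other cell types in the results that follow was not tested. In a bulk library a lower share of cells of 1 kind cannot be told apart from less RNA per cell.

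Most genes differed between the 2 groups, and most by little. Of 12475 genes tested with edgeR's quasi-likelihood test at a Benjamini-Hochberg adjusted p below 0.05 over all genes, 3918 (31.4%) were higher and 3953 (31.7%) lower in the controls, 63.1% in either direction. A further measure, CPM values of the groups that do not overlap, held for 67.2% of genes. The median called change was 0.48 on the log2 scale for higher genes and -0.34 for lower genes. Changes of at least 2-fold were found for 745 higher genes (5.97% of those tested) but for only 67 lower genes (0.537%). The large number of calls goes with a small spread: the common biological coefficient of variation was 0.0405, against 0.388 when the first-round 3D libraries replaced the controls. Correcting each library for its dependence on transcript GC content and length moved the balance of calls from 49.8% higher to 39% higher (3251 higher, 5082 lower).

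**Figure D1:**
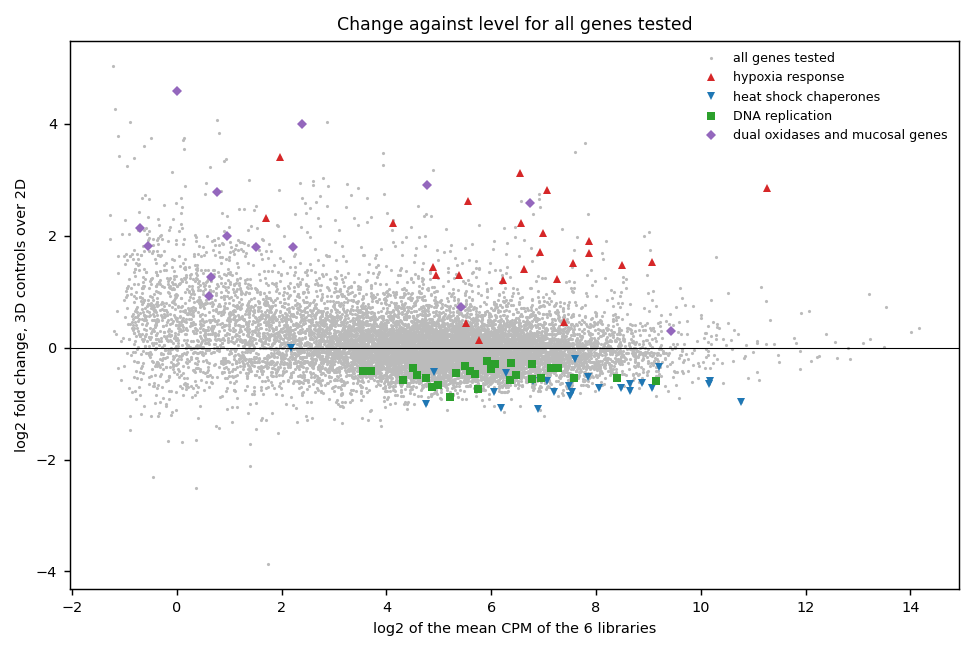
Change between the groups against level, for the 12475 genes tested. The x axis is the log2 of the mean CPM of the 6 libraries and the y axis the log2 fold change of 3D controls over 2D. Each grey point is a gene, and coloured points are members of 4 gene lists. Hypoxia response genes lie above 0 over the whole range of levels, and DNA replication and chaperone genes lie at or below it.

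Where the higher group averaged 10 CPM or more, and with unnamed reading frames left aside, the largest rises were in enzymes and secreted proteins, several of them known hypoxia targets. CYP2J2, an arachidonic acid epoxygenase, stood at 0.555, 1.16 and 0.78 CPM in 2D replicates 1 to 3 and at 17.9, 12.4 and 10.9 CPM in control replicates 1 to 3 (log2 fold change 4.04, SE 0.28, adjusted p = 3.64e-07). NDUFA4L2, a mitochondrial protein that lowers complex I activity in hypoxia, had 21.1, 41.9 and 34.8 CPM in 2D and 477, 389 and 360 CPM in the controls. IGFBP3, which binds insulin-like growth factors in plasma, had 24.3, 34.5 and 36 CPM against 409, 333 and 321. In these 3 genes the groups were far apart, and control replicate 1 was the highest library each time. Rises of 2.90 to 3.27 on the log2 scale followed for TMEM45A, the kinase gene PNCK, CA9, the mitochondrial adenylate kinase AK4, PPFIA4, the aryl hydrocarbon receptor target CYP1A1 and the adhesion protein tensin 1 (TNS1).

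At that level the 10 largest falls were smaller, from -1.40 to -1.12. EPHB2, a receptor tyrosine kinase for ephrins, had 20.9, 21.6 and 22.2 CPM in 2D and 7.54, 7.97 and 9.06 in the controls (adjusted p = 1.39e-11). Among them, 3 serve chromosome segregation: the cohesin protector SGO2 (-1.30), the kinetochore motor CENPE (-1.25) and the condensin subunit SMC4 (-1.15). EIF5B, which joins ribosomal subunits at the start of translation, fell from 187, 159 and 195 CPM to 85.2, 76.2 and 69.7. No control library reached a 2D library in any of these 10 genes, a condition that the choice of named genes required. Below that level, PMEPA1, a TGF-beta-induced inhibitor of the same pathway, had the lowest log2 fold change of all called genes (-3.86), from 5.83, 6.72 and 6.07 CPM to 0.539, 0.476 and 0.243.

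In CPM, which is not corrected for gene length, the largest gains were those of fibronectin (FN1, 6470 ± 562 to 12500 ± 1360, mean ± SD, n = 3 each), caveolin 1 (CAV1), MT-CO1, NDRG1 and GAPDH. Among the largest losses were HSPA8, MET, thioredoxin reductase 1 (TXNRD1) and AKR1B10. MET, the receptor of hepatocyte growth factor, had 7580, 8320 and 7720 CPM in 2D and 7120, 7380 and 5960 in the controls. Its groups came close to each other, and its call (adjusted p = 0.0241) was lost with DESeq2 (0.0515), with upper-quartile scaling (0.053) and without 2D replicate 2 (0.0754).

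Hypoxia response genes rose together. Of 24 tested members, 24 were called higher and none lower, against 31.4% of all genes, and 21 of them by at least 2-fold, against 5.97%. The median log2 fold change of the list was 1.62, beside 0 over all genes tested. Carbonic anhydrase 9 (CA9), which exports acid, stood at 13.3, 23.4 and 20.8 CPM in 2D and at 195, 156 and 149 CPM in the controls. NDRG1, a stress protein strongly induced by low oxygen, went from 467, 678 and 642 to 4740, 4120 and 4100 CPM. For both genes 2D replicate 1 was the lowest of its group and control replicate 1 the highest. VEGFA, the main vessel growth factor, had 92.9, 119 and 117 CPM against 405, 335 and 329 (log2 fold change 1.70, SE 0.13, adjusted p = 0.000145). ANGPTL4, an inhibitor of lipoprotein lipase, rose by 2.82 and the glucose transporter SLC2A1 by 1.53. The tightest p-value of the list belonged to SLC2A1 (1.03e-17), whose 2D libraries lay at 270 to 279 CPM and control libraries at 768 to 834.

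Members of several roles took part in the hypoxia rise. Among collagen-modifying enzymes, the prolyl hydroxylase subunit P4HA1 rose by 2.05, the lysyl hydroxylase PLOD2 by 1.47 and the cross-linking oxidase LOX by 2.23. The mitophagy receptors BNIP3 and BNIP3L rose by 1.41 and 1.71. Of the oxygen sensors that mark hypoxia-inducible factors for degradation, EGLN3 rose by 3.41 and EGLN1 by 0.45. DDIT4, which restrains mTORC1, rose by 2.23. The secreted STC2 was the least changed of the list (0.14), and adrenomedullin (ADM) rose by 1.51. With DESeq2 and with the GC and length offset 23 of the 24 were called, and leaving out 1 library at a time left 23 or 24. Members named beyond the fixed choice of 4 to 6 a list were picked for their roles after their values were seen, here and in the lists that follow. CA9 shares 38.5% of its exon bases with ARHGEF39 on the opposite strand, and the protocol names no step that marks strand.

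The core of the hypoxia response element, ACGTG on either strand, was searched in the 250 bases upstream of RefSeq gene starts (GRCh38.p14). It was found in 11 of the 20 list members with a promoter in the table (55%), and in 23.3% of the 10241 tested genes with one. These 4 stretches show the match, in capitals, in genes that rose, read 5′ to 3′ on the strand of the gene.
CA9: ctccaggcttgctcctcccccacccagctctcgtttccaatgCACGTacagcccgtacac
P4HA1: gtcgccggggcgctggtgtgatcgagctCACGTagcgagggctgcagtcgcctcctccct
DDIT4: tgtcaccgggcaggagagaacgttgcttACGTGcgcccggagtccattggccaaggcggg
ANKRD37: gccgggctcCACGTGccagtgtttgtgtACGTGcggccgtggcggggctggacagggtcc
The stretches lie at chr9:35673868-35673927 (plus strand), chr10:73096921-73096980 (minus), chr10:72273771-72273830 (plus) and chr4:185396670-185396729 (plus). The CA9 match ends 14 bases before the annotated start. ACGTG was no more frequent in all called genes, with 22.5% of those higher and 24.9% of those lower.

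Glycolysis genes rose for the most part, and isoenzymes of 1 step differed. Of 19 tested members 16 were called higher, against 31.4% of all genes, and 3 lower, with a median of 0.61. Phosphoglycerate kinase 1 (PGK1) had 1370, 1470 and 1500 CPM in 2D and 3210, 3030 and 2920 in the controls (log2 fold change 1.08, SE 0.045, adjusted p = 1.62e-14). The aldolase ALDOC rose by 2.60, the enolase ENO2 by 2.39, the lactate exporter SLC16A3 by 1.03 and the pyruvate dehydrogenase kinase PDK1 by 1.35. The widely expressed isoenzymes ENO1 and PKM rose by only 0.12 and 0.17. Lactate dehydrogenase split: LDHA, the form that favours lactate production, rose by 0.97, and LDHB fell by 0.68. LDHB was among the tightest genes, with 781, 780 and 779 CPM against 489, 489 and 482. It shares 33.4% of its exon bases with another annotated gene on the same strand. Muscle phosphofructokinase (PFKM, -0.55) and hexokinase 1 (HK1, -0.24) were the other 2 lower members. GAPDH, LDHA and PGK1 have processed pseudogenes, so some of their reads may have been assigned elsewhere.

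**Figure D2:**
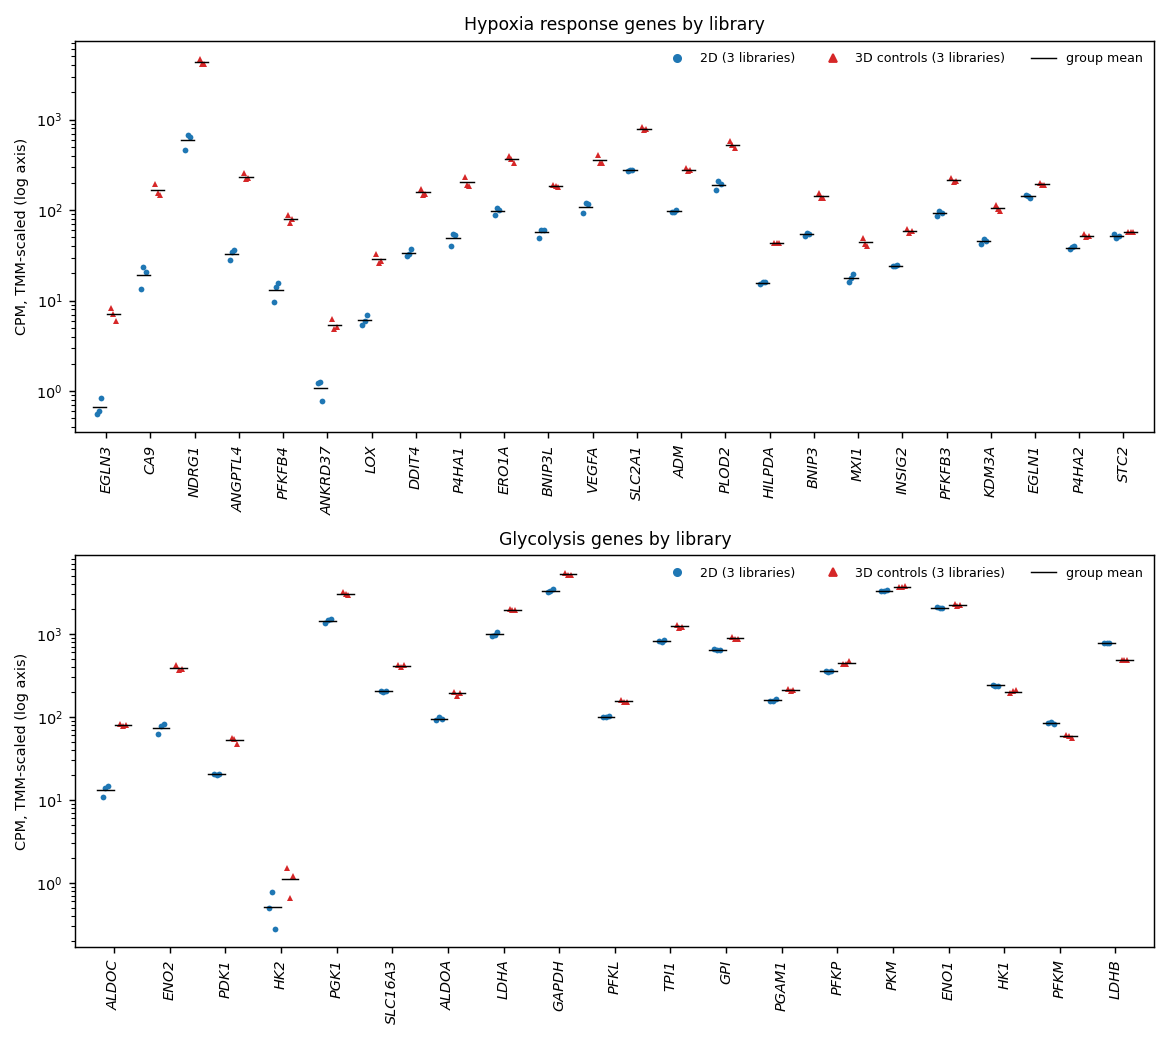
CPM of hypoxia response genes (top) and glycolysis genes (bottom) in each library, on a log axis, with genes ordered by fold change. Circles are 2D libraries, triangles 3D control libraries and bars group means, 3 libraries each. All 24 hypoxia genes have 3 triangles above 3 circles, and HK1, PFKM and LDHB at the right end of the lower panel have them below.

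Mitochondrial fuel genes were lower by small amounts. In the list of the TCA cycle and pyruvate entry 11 of 20 members were lower, against 31.7% of all genes, and 3 higher (median -0.19). Isocitrate dehydrogenase 3 alpha (IDH3A, -0.80), fumarase (FH, -0.60), citrate synthase (CS, -0.46) and the pyruvate dehydrogenase subunit DLAT (-0.40) were the clearest. Pyruvate carboxylase (PC) and the succinate dehydrogenase subunit SDHA rose by 0.34 and 0.24. Nuclear genes of oxidative phosphorylation were lower in 13 of 23 cases (median -0.11), with the ATP synthase subunits ATP5F1A and ATP5F1B at -0.47 and -0.44 and only COX6C higher. Scaling moved this small difference: 10 members were lower with upper-quartile scaling (median -0.06) and 17 with the GC and length offset (median -0.20). IDH3A shares 38.2% of its exon bases with ACSBG1 on the opposite strand.

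Sterol and fat genes moved in different directions, beside 31.4% of all genes called higher and 31.7% lower. Cholesterol synthesis rose in 19 of 24 members and fell in none (median 0.41, highest 1.52). Among them were the reductase genes TM7SF2 (1.10) and DHCR7 (0.76) and the isomerase IDI1 (0.59). DHCR7 had 124, 130 and 137 CPM in 2D and 209, 211 and 244 in the controls. The sterol sensor partner INSIG1, also a member, rose by 1.02. With the GC and length offset 15 cholesterol synthesis genes were higher and 2 lower. Leaving out 1 library at a time gave up to 2 lower. The list's medians in control replicates 1, 2 and 3 over the 2D mean were 0.25, 0.43 and 0.55. The sterol element TCACNCCAC was found upstream of 0 of 17 members with a promoter in the table and of 0.879% of tested genes. Fatty acid synthesis was mixed (median -0.20, and -0.37 with the GC and length offset), with 8 of 14 lower, among them malic enzyme ME1 (-0.68) and acetyl-CoA carboxylase ACACA (-0.44), and 3 higher, among them the desaturase SCD (0.53). In the list of fatty acid oxidation and PPAR targets 10 of 19 rose, including the pyruvate dehydrogenase kinase PDK4 (2.19). Of the same list 3 fell, including the rate-limiting enzyme CPT1A (-0.24).

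Heat shock chaperones were lower as a block. Of 25 members 24 were called lower and none higher, against 31.7% of all genes, with a median of -0.68, and CRYAB alone was not called. The constitutive chaperone HSPA8 had 2370, 2320 and 2260 CPM in 2D and 1110, 1180 and 1230 in the controls (log2 fold change -0.98, SE 0.042, adjusted p = 2.34e-14). HSPH1, a nucleotide exchange factor for HSP70, had 161, 162 and 160 against 73.1, 81.1 and 70.9. The groups were widely separated in both. The HSP90 co-chaperones STIP1 and FKBP4 fell by 0.78 and 0.86, the mitochondrial chaperonin HSPD1 by 0.72 and the cytosolic chaperonin subunit CCT5 by 0.79. Heat-inducible HSPA1A fell by 0.63, from 562, 583 and 582 CPM to 361, 369 and 384. HSPA1A and its near-identical copy HSPA1B share reads, so their separate values are uncertain. The first-round 3D libraries, sequenced with the same 2D libraries and fitted against them, had a median of -0.32 for these 25 genes, with 8 called lower against 6.44% of all genes, and HSPA1A at 0.23 (SE 0.43). When 12 libraries of 5 groups shared 1 estimate of the spread, 4 chaperones were called lower.

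A heat shock element, written here as GAANNTTC (the same on both strands), was found upstream of 8 of 22 chaperone genes with a promoter in the table (36.4%) and of 4.2% of tested genes. The 4 stretches below come from members that fell and show the match in capitals, 5′ to 3′ on the strand of the gene (RefSeq, GRCh38.p14).
HSPA1A: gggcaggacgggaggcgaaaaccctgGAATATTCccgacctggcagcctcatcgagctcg
HSPA8: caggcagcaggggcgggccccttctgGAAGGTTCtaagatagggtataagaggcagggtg
CHORDC1: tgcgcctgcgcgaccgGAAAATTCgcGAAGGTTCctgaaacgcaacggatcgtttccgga
DNAJA1: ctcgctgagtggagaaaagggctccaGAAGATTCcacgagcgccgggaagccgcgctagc
They lie at chr6:31815411-31815470 (plus strand), chr11:123062153-123062212 (minus), chr11:90223066-90223125 (minus) and chr9:33025049-33025108 (plus). CHORDC1, an HSP90 co-chaperone with 3 matches in 250 bases, fell by 1.08, and DNAJA1, an HSP40 protein, by 0.73.

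Protein turnover and synthesis genes were lower with the chaperones. All 23 tested proteasome subunits were called lower, against 31.7% of all genes (median -0.42, range -0.60 to -0.22). PSMD1, the largest subunit of the regulatory particle, had 166, 167 and 166 CPM in 2D and 105, 114 and 111 in the controls. Mitochondrial ribosomal proteins were lower in 22 of 24 cases (median -0.40). MRPL12, for example, went from 226, 208 and 216 to 130, 128 and 134 CPM. Translation factors were lower in 18 of 21 cases, with the helicase EIF4A1 at -0.62 and the initiation factor subunit EIF3B at -0.51, while EIF4A2, a close relative of EIF4A1, rose by 0.59. Ribosomal proteins of the cytosol had 13 of 30 lower (43.3%, not far above the 31.7% of all genes) and 1 higher (median -0.07). This count followed the scaling. It was 22 lower and 0 higher after the GC and length offset (median -0.15), and 10 lower and 4 higher with upper-quartile scaling (median -0.02). In the endoplasmic reticulum list 13 of 20 genes were lower and 1 higher, with the chaperone HSPA5 at -0.53 and its partner SDF2L1 at -0.83. MRPL12 and EIF4A1 share 68.2% and 41.1% of exon bases with other annotated genes on the same strand.

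Some of these lists had other medians in the first-round 3D libraries, which were compared with the same 3 2D libraries and stand apart from each other. Mitochondrial transcripts took 4.57, 2.57 and 11.3% of counts in first-round replicates 1, 2 and 3. The first-round medians were -0.12 for the proteasome, 0.42 for mitochondrial ribosomal proteins, 1.46 for cytosolic ribosomal proteins, 1.01 for oxidative phosphorylation and 0.30 for NRF2 targets. Taken library by library against the 2D mean, mitochondrial ribosomal proteins had medians of 0.71, 0.67 and -0.44, NRF2 targets 0.40, 0.73 and -0.70, the proteasome 0.17, -0.13 and -0.59, heat shock chaperones -0.25, -0.18 and -1.17 and oxidative phosphorylation 1.36, 1.18 and 0.17. For mitochondrial ribosomal proteins and NRF2 targets replicate 3 thus lay on the same side of 2D as the second-round controls, and replicates 1 and 2 on the other.

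Cell cycle genes were lower by modest amounts. All 28 DNA replication genes were called lower, against 31.7% of all genes (median -0.47, range -0.89 to -0.23). The sliding clamp PCNA had 231, 223 and 222 CPM in 2D and 149, 154 and 159 in the controls (log2 fold change -0.55, SE 0.041, adjusted p = 1.96e-10). MCM10, which activates the replicative helicase, had 47.8, 49 and 47.2 against 23.4, 28.4 and 25.8. Helicase subunits MCM7 and MCM4 fell by 0.59 and 0.54. Of 24 genes of G2 and mitosis 19 were lower (median -0.34), among them the anaphase activator CDC20 (-0.68), the kinase PLK1 (-0.59) and cyclin B1 (CCNB1, -0.52), and the ubiquitin enzyme UBE2C alone was higher (0.30). MKI67, the Ki-67 proliferation marker, fell by 0.27, from 377, 403 and 377 to 307, 341 and 312 CPM. Its first-round value was -1.99 (SE 0.2), and that of PCNA was -1.34 (SE 0.21). The cell cycle element TTTGAA was present upstream of 11 of 19 G2 and mitosis genes (57.9%) and of 8.37% of tested genes. The E2F element TTTGGCGC was found for 2 of 25 replication genes (8%) and 0.898% of tested genes, on either strand as for all motifs here.

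**Figure D3:**
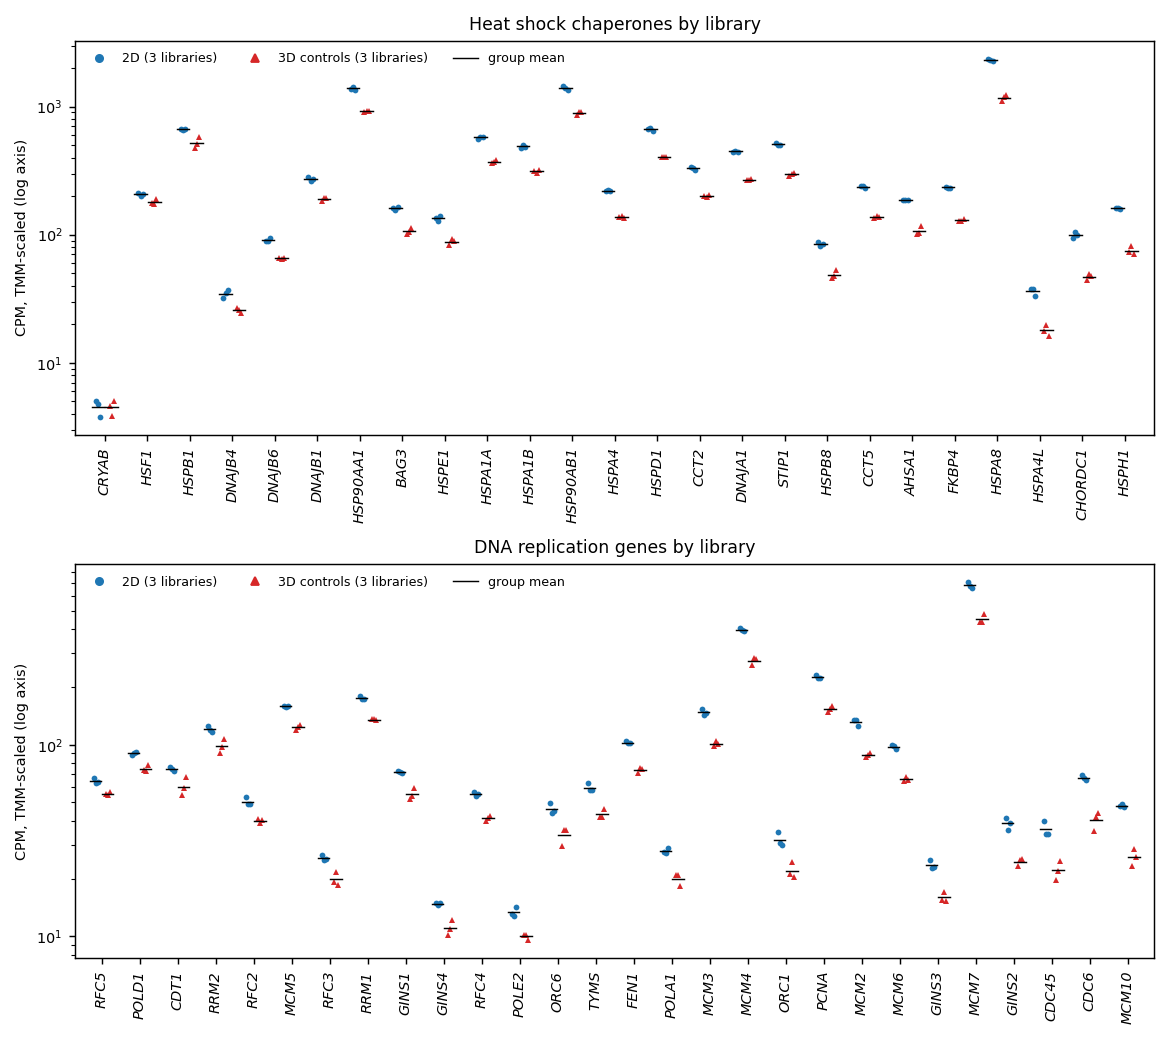
CPM of heat shock chaperones (top) and DNA replication genes (bottom) in each library, on a log axis, with genes ordered by fold change from the least to the most reduced. Circles are 2D libraries, triangles 3D control libraries and bars group means, 3 libraries each. The triangles lie below the circles for every gene but CRYAB.

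Antioxidant and AHR target genes parted. NRF2 targets were lower in 18 of 20 cases, against 31.7% of all genes, and higher in none (median -0.40). The aldo-keto reductases AKR1B10 and AKR1C1 fell by 0.57 and 0.63, and AKR1B10 had 2710, 2590 and 2600 CPM in 2D against 1740, 1790 and 1800 in the controls. AKR1C1 and AKR1C2 are near-identical and their separate values are uncertain. Among 9 AHR targets 6 were higher, against 31.4% of all genes, and 2 lower (median 0.59). Without 2D replicate 1 the median was 0.36, and with the GC and length offset 4 were higher and 3 lower (median 0.43). CYP1A1, the classical AHR-induced monooxygenase, had 2.78, 1.43 and 2.45 CPM in 2D and 16.5, 18.5 and 15.4 in the controls (log2 fold change 2.92, SE 0.15, adjusted p = 3.95e-12). CYP1B1 rose by 1.45 and TIPARP, a feedback inhibitor of the receptor, by 0.72. NQO1, a target of both NRF2 and AHR, fell by 0.25. The small rise of ALDH3A1 (0.15) was 0.00 after the GC and length offset (adjusted p = 0.996).

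The xenobiotic response element core, GCGTG on either strand, occurred upstream of 6 of 7 AHR targets with a promoter in the table (85.7%), and of 45.4% of tested genes. It shares the letters CGTG with the hypoxia core. It is shown in capitals for CYP1A1 at chr15:74725554-74725613 (minus strand, GRCh38.p14), the list's strongest riser.
CYP1A1: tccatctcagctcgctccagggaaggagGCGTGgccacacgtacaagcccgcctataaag

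SP1, IL4I1 and AHR, a general transcription factor, a secreted amino acid oxidase that makes AHR ligands and the receptor itself, changed in different directions. IL4I1 overlaps the NUP62 gene, so counting could split reads between them. It had 0.278, 0.606 and 0.39 CPM in 2D and 0.958, 0.951 and 1.15 in the controls, where 3 counts correspond to 0.168 to 0.179 CPM. That is a rise of 1.25 (SE 0.35, adjusted p = 0.00364), from very few reads, beside 4.76 (SE 0.63) in the first-round 3D libraries. SP1 went from 150, 156 and 153 to 200, 201 and 193 CPM (0.37, adjusted p = 6.72e-08), beside -0.06 (SE 0.27) in the first round. AHR fell by 0.23 (adjusted p = 0.00449), from 111, 124 and 116 to 105, 105 and 89 CPM. It shares 29.4% of its exon bases with another annotated gene on the same strand. The groups of SP1 were well apart, and those of AHR were close. Those of IL4I1 did not overlap but lay few reads apart, and the gene passed the expression filter only through the controls. Between the 2 sets of 3D libraries, edgeR's quasi-likelihood test called 0 of 12523 genes, so it separates no gene from another. DESeq2 called IL4I1 lower in the controls (log2 difference -3.59, SE 0.57, adjusted p = 1.61e-07) and gave adjusted p = 0.325 for SP1 and 0.06 for AHR.

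Epithelial defence genes rose. All 14 tested genes of the dual oxidase and mucosal list were called higher (median 1.90), against 31.4% of all genes. Of these, 11 rose by at least 2-fold, against 5.97% of all genes. These counts include members near 0 in 2D that passed the expression filter only through the controls. They could hardly have been called lower. DUOXA2, for example, had 0.111, 0.0551 and 0.0557 CPM in 2D and 2.33, 2.32 and 1.15 in the controls. The trefoil peptide TFF1 had 5.28, 7.06 and 7.07 CPM in 2D and 48.6, 45.2 and 50.8 in the controls. DUOX2, which makes hydrogen peroxide at epithelial surfaces, had 0.667, 0.496 and 0.668 against 12, 8.86 and 8.57, and the membrane mucin MUC1 rose by 2.58. None of these groups overlapped. Of 18 NF-kB and inflammation genes 15 were higher and none lower (median 0.55), including the anti-apoptotic BIRC3 (1.55), the feedback inhibitor TNFAIP3 (1.07) and the adhesion receptor ICAM1 (0.61). Interferon genes were higher in 13 of 19 cases and lower in 2 (median 0.69), with IFIT2 at 2.39 and IRF7 at 0.97, and with OAS3 and USP18 lower (-0.30 and -0.86). Antigen presentation genes were higher in 13 of 17 cases (median 0.41), with the peptide-loading factor TAPBP at 0.81 and B2M at 0.41, and the transporter TAP2 was lower (-0.61).

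The interferon-stimulated response element was searched on both strands, as GAAA and GAAA with any 2 bases between them. It lay upstream of 8 of 14 interferon genes with a promoter in the table (57.1%) and of 2.24% of tested genes. IFIT1, an RNA-binding antiviral protein that rose by 1.67, carries 2 matches, shown in capitals at chr10:89392495-89392554 (plus strand, GRCh38.p14).
IFIT1: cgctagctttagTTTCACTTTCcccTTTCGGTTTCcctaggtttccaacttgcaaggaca

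Matrix and junction genes were more often higher than lower, with large exceptions among the collagens, and the mesenchymal list was divided. Among 17 collagens and basement membrane genes 10 were higher, against 31.4% of all genes, and 4 lower (median 0.70). The median lay between genes far apart and was 0.25 with DESeq2 or 12 libraries, 0.38 with 15 libraries and 0.42 with the GC and length offset. Laminin beta 2 (LAMB2) had 46.6, 50.7 and 47.9 CPM in 2D and 122, 108 and 119 in the controls, and collagen VI (COL6A1, 0.85), agrin (AGRN, 0.85) and laminin alpha 3 (LAMA3, 0.70) rose as well. Collagen I (COL1A1) fell by 2.11, from 4.39, 4.08 and 4.29 to 1.14, 0.713 and 1.09 CPM, and collagen IV alpha 2 (COL4A2) by 0.97. Junction genes were higher in 12 of 17 cases and lower in 2 (median 0.41). Claudin 7 (CLDN7) rose by 1.98, junctional adhesion molecule A (F11R) by 1.20 and E-cadherin (CDH1) by 0.66. N-cadherin (CDH2), which carcinoma cells gain in mesenchymal transition, fell by 0.39. In the mesenchymal list 8 of 13 were higher, led by the lysyl oxidase LOXL2 (1.29) and FN1 (0.95). The other 5 were lower (38.5%, against 31.7% of all genes), including the smooth muscle protein TAGLN (-1.30). The lowest member stood at -2.31. Of 15 matrix proteases and inhibitors 9 were higher and 3 lower (median 0.24, and 0.14 with the GC and length offset), with the urokinase receptor PLAUR at 0.97 and its ligand PLAU at -0.57.

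Targets of cytoskeletal tension were divided. YAP and TEAD targets had 9 of 17 lower, against 31.7% of all genes, and 4 higher (median -0.18). Without control replicate 3 the median was -0.11, and with 12 libraries 1 member was lower and 3 higher. CCN2, a matricellular growth factor, had 23.1, 24.4 and 23.1 CPM in 2D and 10.4, 14 and 15 in the controls, and CCN1 fell by 0.51, while the receptor kinase AXL rose by 0.81. The TEAD element GGAATG lay upstream of 5 of 14 YAP targets with a promoter in the table (35.7%) and of 9.44% of tested genes. SRF and MRTF targets had 9 of 14 lower and 1 higher (median -0.29). In the 12-library fit 1 of these was lower. Keratins and lamins had 7 of 10 lower (median -0.28, and -0.18 with DESeq2), with lamin B2 (LMNB2) at -0.54 and KRT18 at -0.32, and KRT20 rose by 0.40. In the first round KRT8, at -0.25 in the controls, was 0.92 (SE 0.44). Immediate early genes were higher in 15 of 24 cases, against 31.4% of all genes, and lower in 4 (median 0.43). The phosphatases DUSP6 (1.19) and DUSP1 (1.21) and the mRNA decay factor ZFP36 (1.07) were higher, and FOSL1 (-0.68) and MYC (-0.33) lower.

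Signalling lists were divided, beside 31.4% of all genes called higher and 31.7% lower. Among TGF-beta and BMP genes 12 of 22 were higher and 9 lower (median 0.15), and with the GC and length offset 9 were higher and 10 lower (median 0.01), with the ligand TGFB1 at 0.80 and the receptor TGFBR2 at -0.38. Wnt genes were lower in 10 of 21 cases and higher in 6 (median -0.17, and -0.31 with the GC and length offset), including the feedback genes AXIN2 (-0.45), NKD1 (-0.75) and ZNRF3 (-0.41), while the transcription factor TCF7L2 rose by 0.75. Notch genes were higher in 9 of 12 cases (median 0.31), with the target HEY1 at 1.02 and the receptor NOTCH2 at 0.43, and the ligand JAG1 fell by 0.47. After the GC and length offset 5 Notch genes were called higher and 2 lower, and the median was 0.08.

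**Figure D4:**
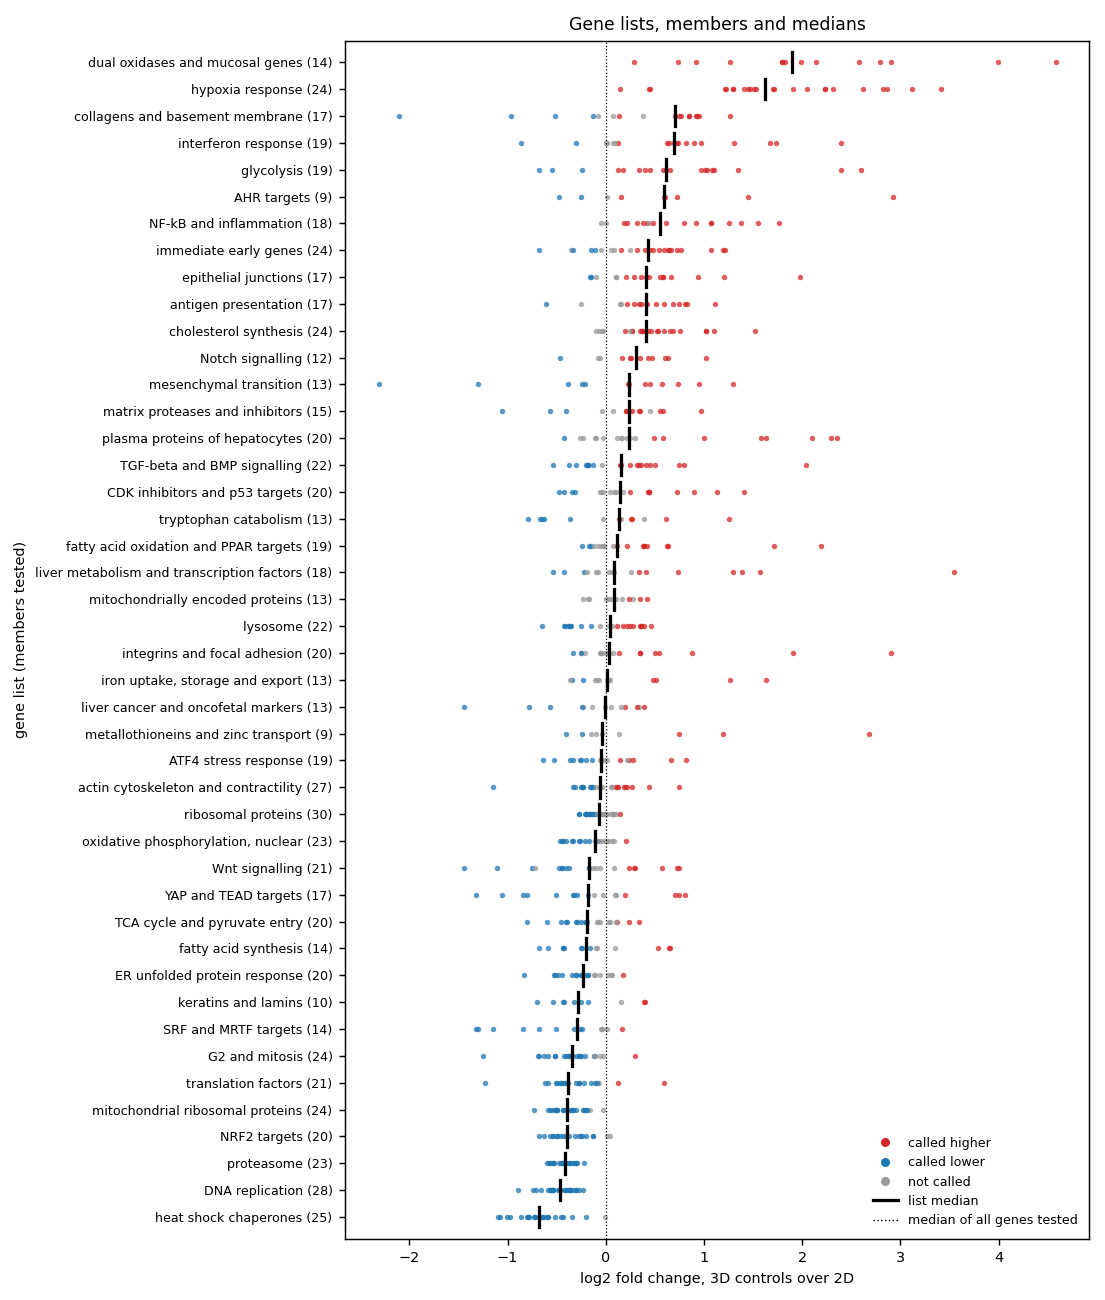
Log2 fold change of 3D controls over 2D (x axis) for the tested members of 44 gene lists (y axis, number tested in brackets), ordered by list median. Red points were called higher, blue points lower and grey points neither. Black bars are list medians, and the dotted line is the median of all genes tested. Mucosal and hypoxia lists stand at the top with medians of 1.90 and 1.62, and heat shock chaperones at the bottom with -0.68.

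The first-round 3D libraries give a measure of the model within 1 round, though with far less precision. Fitted against the same 3 2D libraries, they had 1695 higher genes (13.7% of 12384 tested) and 798 lower genes (6.44%). For the hypoxia list that fit called 12 of 24 members higher and none lower, with a median of 1.83 beside 1.62 for the controls. In first-round replicates 1, 2 and 3 taken singly the list's medians were 1.40, 0.80 and 2.46. CA9 was 4.37 (SE 0.35), NDRG1 3.47 (SE 0.3) and CYP1A1 2.97 (SE 0.51) in the first round. Glycolysis had medians of 1.48 and 0.61, cholesterol synthesis 1.06 and 0.41, the mucosal list 3.41 and 1.90, and DNA replication -1.09 and -0.47, in the order first round, controls. The 3 first-round libraries taken singly stood at -0.99, -0.91 and -1.56 for DNA replication. The same pairs were 1.48 and 0.55 for NF-kB and inflammation, 1.69 and 0.69 for interferon response, 1.34 and 0.41 for antigen presentation, 0.22 and 0.41 for junctions and 0.76 and 0.70 for collagens and basement membrane. For G2 and mitosis they were -1.35 and -0.34, and for YAP targets -0.38 and -0.18. Single first-round libraries stood at 0.18, -0.67 and 0.46 for junctions, so replicate 2 lay on the other side of 2D. For YAP targets they stood at -0.78, -1.06 and -0.71. Genes with values on opposite sides of 0 included SDF2L1 (0.50, SE 0.61, beside -0.83) and LAMA3 (-1.25, SE 0.46, beside 0.70), neither called in the first round. A direct test of the controls against the first-round 3D libraries with edgeR's quasi-likelihood test called 0 of 12523 genes, with 3841 (30.7%) at an unadjusted p below 0.05. DESeq2 called 611 of 16502 higher (3.7%) and 1733 lower (10.5%) in the controls. Since both comparisons use the same 2D libraries, their values are given side by side only.

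**Figure D5:**
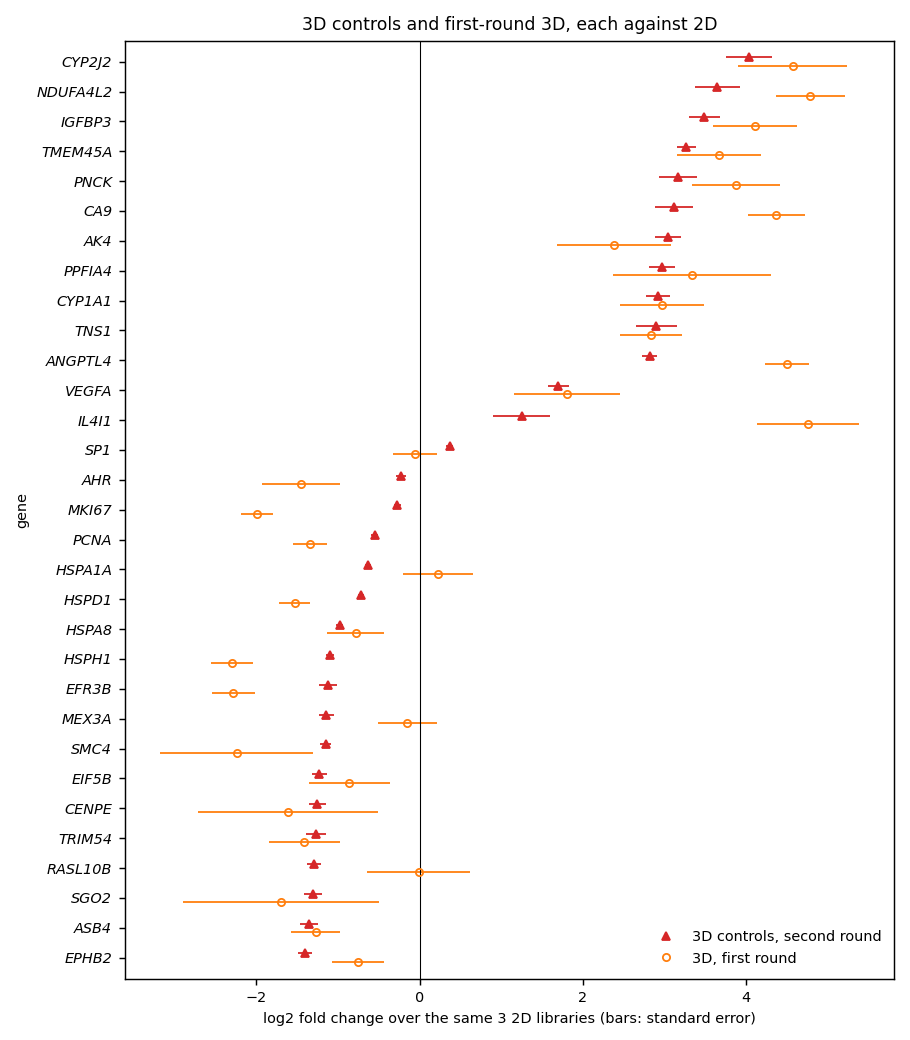
Log2 fold changes over the same 3 2D libraries (x axis, bars are standard errors) for 31 named genes (y axis). Filled triangles are the 3D controls of the second round and open circles the 3D libraries of the first, 3 libraries each. The standard errors of the first round are wider, IL4I1 lies at 1.25 and 4.76, and RASL10B at -1.29 and -0.01.

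Precision depended on which libraries shared the spread. With all 15 libraries in 1 fit the biological coefficient of variation was 0.365, and 123 genes were higher and 1 lower. Of these, 120 and 1 were among the genes called from 6 libraries. In that fit 6 hypoxia genes, 2 glycolysis genes and no chaperone, proteasome or replication gene passed. With 12 libraries, leaving out first-round 3D replicates 1 and 2 and heat replicate 1, the counts were 1658 and 1561, with 22 hypoxia, 20 proteasome and 17 replication genes called in the same direction as above.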

How the data were processed

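RNA was measured in 15 libraries of MHCC-97H cells, 6 of them used in the main comparison. Per the labels' protocols, fragmented mRNA was primed with random hexamers and read as single-end reads of 50 bases. The submitters' processing notes name HISAT2 and hg19, with no version, and the counting program, annotation and strand setting are not given in the sources used here. Besides the overlaps given above, TAP2, F11R and AXIN2 share 32.3%, 36.6% and 25.2% of exon bases with other annotated genes on the same strand. DUSP6, PLAU and ICAM1 share 40.5%, 31.1% and 22% with genes on the opposite strand. The authors deposited raw read counts per gene symbol in 1 table of 19143 lines, of which 1443 hold 0 throughout. In 27 lines the symbol had become a date (0.168% of counts), and these were named nowhere.

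The counts were tested with edgeR 4.0.16 in R 4.3.3 (limma 3.58.1), using filterByExpr, TMM scaling and robust quasi-likelihood fits of the 3 control against the 3 2D libraries, with Benjamini-Hochberg adjustment over all genes and a threshold of 0.05. CPM values are TMM-scaled and not corrected for gene length. The filter also keeps a gene that reaches its level in 1 group alone. Such a gene, near 0 in the other group, could hardly be called the other way. In simulated counts for 12393 genes, 50 genes above 1 CPM were changed at each size and 12193 genes were left unchanged. There the test recovered 64% of genes changed by 0.35 on the log2 scale, 82% at 0.5 and 100% at 1. It called 0.082% of unchanged genes. In the data 63.1% of genes were called, a far larger share than was changed in the simulation, so these rates do not carry over to the real fit. DESeq2 1.42.0, other scalings and filters, a replicate block, other sets of libraries, a fold threshold and an offset for GC content and length were alternatives. Medians of single first-round libraries were added after the data were seen.

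Members and gene lists were chosen with earlier results of these data known. Named genes had groups that do not overlap and a mean of at least 10 CPM in the higher group (the 10 largest rises and falls, and the 5 largest CPM gains and losses, leaving out pseudogenes, antisense RNAs, unnamed loci such as open reading frame symbols, and symbols turned into dates), or were the 4 called members with the smallest adjusted p in each list whose share called was at least 1.5 times that of all genes, with up to 2 in the other direction, or were fixed reference genes. A few genes that this choice names are not reported here. Promoters came from RefSeq (GRCh38.p14), matched by symbol or older symbol for 10241 of the tested genes (82.1%), and were used for sequence only, since the counts were made on another build.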

Additional observations from a re-analysis of the deposited data

How the results depend on the processing

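Counts of genes higher and lower in the controls (3918 and 3953) were 3330 and 3513 with DESeq2, 3965 and 3895 with median-ratio scaling, 4355 and 3431 with upper-quartile scaling, 3519 and 4379 without scaling, 4026 and 4206 without a filter, 4004 and 3852 with a stricter filter of 10 reads per library, and 3251 and 5082 with the GC and length offset. They fell to 123 and 1 with all 15 libraries, 1658 and 1561 with 12, and 315 and 9 when a change beyond 2-fold was tested. Leaving out 1 library at a time gave 3574 to 3980 higher and 3627 to 3891 lower. The labels number the replicates of both groups 1 to 3, but deviations of same-numbered libraries correlated at -0.147, 0.0219 and -0.0303, so these share only a number. With a replicate block 3839 and 3855 genes were called. Of 195 named genes, 193 were called, and none of those changed direction in any of these alternatives. Aside from the 15-library, 12-library and fold-threshold fits, 8 lost their call at least once, among them MET and, with the GC and length offset, ALDH3A1, S100A4, KRT7, FHL2, LRP5 and HES4. Depth limits genes near the floor of 3 counts, 0.168 to 0.179 CPM. Model and round coincide, which no setting changes.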

Other observations

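Ribosome biogenesis genes, a list put together after its values were seen, were lower throughout. All 38 tested were called lower, against 31.7% of all genes, with a median log2 fold change of -0.62. The rRNA methyltransferase NOP2 had 204, 198 and 195 CPM in 2D and 102, 111 and 117 in the controls, and nucleolin (NCL) and nucleophosmin (NPM1), the main nucleolar proteins, fell by 0.59 and 0.54. In the first-round 3D libraries, set against the same 2D libraries, the median was -1 and 17 were called lower. Cytoplasmic tRNA synthetases, chosen in the same way, were lower in 17 of 20 cases (median -0.38), with DARS alone higher (0.25).

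IGF-binding proteins and histones, also listed after their values were seen, rose. All 6 tested IGF-binding proteins were called higher, against 31.4% of all genes (median 1.86). The median was 1.38 with DESeq2 and 1.35 with 12 or 15 libraries, and 5 were called higher with the GC and length offset. IGFBP1, a liver-secreted binding protein, had 37.5, 31.6 and 37.9 CPM in 2D and 186, 183 and 191 in the controls. Of 17 histone genes 12 were higher and 1 lower (median 0.93). HIST1H4H had 26.9, 42.3 and 38.5 CPM against 246, 197 and 177. HIST1H2BK was the 1 called lower (-0.25), but its groups overlapped. With DESeq2, the replicate block or upper-quartile scaling 0 histone genes were called lower. Histone genes have near-identical copies, so their separate values are uncertain.

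Of the 44 pathway lists, 13 had a share of called members below 1.5 times that of all genes (31.4% higher, 31.7% lower) in both directions. Plasma proteins were higher in 8 of 20 cases and lower in 1 (median 0.24), and their medians in control replicates 1, 2 and 3 over the 2D mean were 0.58, 0.03 and 0.13. Replicate 1 stood apart in this list, and leaving out 1 library at a time gave medians of 0.12 to 0.39. Albumin (ALB) had 2.5, 2.2 and 2.67 CPM in 2D and 5.39, 2.08 and 1.58 in the controls (adjusted p = 0.614, edgeR's quasi-likelihood test), and these groups overlapped. The list of liver metabolism and transcription factors had 7 of 18 higher and 3 lower. Cell cycle inhibitors and p53 targets had 9 of 20 and 4, and integrins 8 of 20 and 2. Actin genes had 9 of 27 and 11, and lysosomal genes 10 of 22 and 9. The 13 mitochondrially encoded protein genes had 3 higher and none lower (median 0.08), and 2 higher and 2 lower with the GC and length offset (median -0.05). Integrins had 8 higher and 6 lower with that offset, and the list of liver metabolism and transcription factors 6 and 6.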
